A study of Homo sapiens with 6 samples.

Results

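The genes described here encode integrins, the paired alpha and beta receptor chains by which cells hold on to the matrix, and laminins, the 3-chain proteins of the basement membrane that several integrins bind. All genes listed in the files whose symbols name an integrin alpha chain, an integrin beta chain or a laminin alpha, beta or gamma chain were taken, which gave 38 of the 17631 genes listed: 18 integrin alpha chains, 8 integrin beta chains and 12 laminin chains. The data came from mRNA sequencing of MDA-MB-231, an established line of human breast cancer cells of the triple-negative kind with a mesenchymal-like appearance. Cells received either vehicle or 30 µM PDBAG1 for 24 h, with 3 libraries per group. PDBAG1 is a synthetic peptide that joins a stretch of the metabolic enzyme GPD1 to a cell-penetrating sequence. The peptide was made up in water, the vehicle is not described further, and all libraries came from this single line, whose labels also call it breast cancer tissue. Nothing in the sources used here says that the libraries of a group came from separate cultures, so p values measure the spread between these libraries only.

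An integrin works as a heterodimer of an alpha and a beta chain, and the pair decides which ligand is bound. The beta1 chain pairs with most alpha chains, among them those for collagen (alpha1, alpha2, alpha10, alpha11), for fibronectin (alpha5) and for laminins (alpha3, alpha6, alpha7). The beta4 chain pairs only with alpha6 and anchors epithelial cells to laminin in hemidesmosomes, whereas alphaL, alphaM, alphaX, alphaD and alphaE with beta2 and beta7 are leukocyte receptors. A laminin is a trimer of an alpha, a beta and a gamma chain and is named by their numbers, so that laminin-511 holds LAMA5, LAMB1 and LAMC1.

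The values were TPM (transcript abundances scaled to a fixed total per library), which are corrected for transcript length, so levels of different genes can be set side by side. TPM keep no sequencing depth, which is therefore unknown, and each library sums to 999998 to 1000000 TPM. The markers of the line were present in every library, with vimentin (VIM) at 4174 TPM or more, CD44 at 313 TPM or more and EGFR at 66.3 TPM or more. Of 8 leukocyte markers analysed here, SPI1, CD79A and NKG7 were below 1 TPM in every library and PTPRC stood at 0.860 to 1.41 TPM. LYZ stood at 1.45 to 2.49 TPM, CD14 at 6.01 to 7.70 TPM and CORO1A at 6.03 to 8.29 TPM, and the lysosomal marker CD68 carried most of the list's sum of 267 to 283 TPM with vehicle and 321 to 346 TPM with PDBAG1. In bulk RNA a change in the share of cells and a change of RNA per cell cannot be told apart. Vehicle replicate 1 gave the highest vehicle value in 21 of the 22 integrin and laminin genes that were tested, and PDBAG1 replicate 1 gave the lowest PDBAG1 value in 16 of the 22, so both libraries are followed below.

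In vehicle-treated cells the integrin system was dominated by the common beta chain. ITGB1 (beta1, chromosome 10, 32887273 to 33005792, GRCh38, GENCODE v44) stood at 906, 869.9 and 859 TPM, and made up 87.7% ± 0.0853 (SD, n = 3) of the summed TPM of all beta chains. It was followed at a distance by ITGB5, a partner of alphaV, at 46.9 ± 2.12 TPM (SD, n = 3) and by ITGB4 at 45.6 ± 1.78 TPM (SD, n = 3), whose ranges overlapped. ITGB2, the leukocyte beta chain, came next at 28.3 ± 0.517 TPM (SD, n = 3), although its alpha partners ITGAL, ITGAM, ITGAX and ITGAD did not exceed 0.360 TPM in any library. ITGB3, which pairs with alphaV, was at 1.60 ± 0.197 TPM (SD, n = 3), and ITGB6, ITGB7 and ITGB8 stayed below 1 TPM in every library.

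Among the alpha chains the laminin receptors led. ITGA3 (alpha3, chromosome 17, 50055968 to 50090481) stood at 259 ± 8.93 TPM (SD, n = 3) and ITGA6 (alpha6) at 131 ± 8.18 TPM (SD, n = 3). ITGA2 (alpha2) followed at 80.0 ± 8.05 TPM, ITGA5 (alpha5) at 66.7 ± 0.281 TPM and ITGAV (alphaV) at 26.7 ± 2.95 TPM (SD over 3 libraries each), and none of these neighbours overlapped in the vehicle libraries. Laminin-binding chains together took 66.2% ± 0.475 (SD, n = 3) of the alpha sum, against 15.8% ± 0.802 for collagen-binding and 15.9% ± 0.275 for the RGD-binding chains, which include alpha5 and alphaV. ITGAE at 11.9 TPM, ITGA1 at 8.24 TPM and ITGA10 at 4.54 TPM (means of the vehicle libraries) closed the list of expressed chains. The other 10 alpha chains were below 1 TPM in every library, and ITGAD and ITGAM were listed at 0 in all vehicle libraries.

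The laminin genes held chains for more than one trimer. LAMB3 (chromosome 1, 209614870 to 209652425) was the most abundant laminin chain at 84.3 ± 1.85 TPM (SD, n = 3). LAMC1, LAMA5 and LAMB2 formed a group between 55.0 and 52.6 TPM (vehicle means) in which each range overlapped that of the next. LAMB1 followed at 32.5 ± 2.81 TPM (SD, n = 3) and LAMA3 at 14.4 ± 0.905 TPM (SD, n = 3). LAMB3 was thus 5.86 ± 0.265 times LAMA3 in TPM (ratio per vehicle library, mean and SD, n = 3). LAMA4 and LAMA1 were close to 1 TPM, and LAMA2, LAMB4 and LAMC3, a muscle and nerve laminin chain, a little-studied chain and a minor gamma chain, stayed at or below 0.700 TPM.

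**Figure D1:**
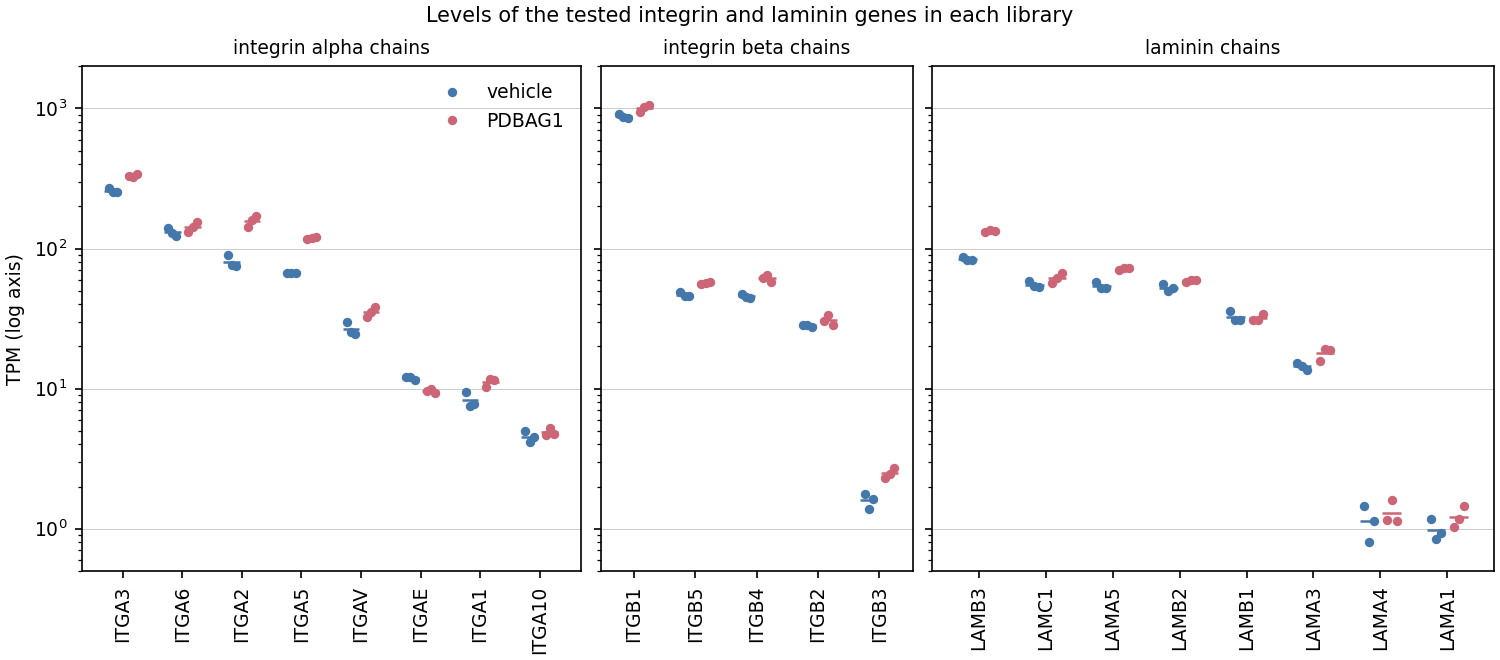
TPM on a log axis for 21 of the integrin and laminin genes tested, with 1 point per library and a short line at the mean of each group (blue, vehicle; red, PDBAG1; n = 3 each). ITGB1 lies far above the other chains, between 859 and 1054 TPM, and ITGA2, ITGA5 and LAMB3 show the widest gaps between the groups.

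PDBAG1 was compared with vehicle to see whether the receptors and their laminin ligands moved, and in the genes tested they moved mostly upward. A gene was tested when it had at least 1 TPM in 3 or more libraries. This kept 22 of the 38 genes (8 alpha, 5 beta and 9 laminin chains), and the 16 left out were below 1 TPM in every library. Of the 22, 20 had at least 1 TPM in all vehicle libraries, and LAMA1 and LAMA4 were the exceptions. At a limma adjusted p under 0.05, 15 rose, 1 fell and 6 did not pass. Over all 12582 genes tested, 21.7% rose and 15.9% fell at the same threshold. Rises were 57.8% of all calls, a share that was 46.7% with quantile normalization and 43.97% with length and GC trends removed, and among the calls in this family 93.8%, 93.8% and 92.3%. ITGA2, ITGA5 and LAMB3 rose 1.5-fold or more, against 2.86% of all genes (LAMB3 fell short of that size with length and GC trends removed, at a log2 fold change of 0.52), and no member fell that far, against 0.477% of all genes. In 14 of the 22 genes all PDBAG1 libraries lay above all vehicle libraries, and in 1 all lay below, where 27.2% and 20.2% of all genes tested did so. The median log2 fold change (log2FC), on the log2(TPM + 1) scale used throughout, was 0.28 for these genes and 0.03 for all genes tested. With length and GC trends removed these medians were 0.16 and -0.02, and the log2FC was 0.20 for ITGA3 (0.36 without that step), 0.22 for ITGB4 (0.42) and 0.18 for ITGB5 (0.28), each still past the threshold.

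Summed over each chain type, the TPM were higher with PDBAG1, and differences between the types were not tested. The summed TPM of the alpha chains were 623, 576 and 568 with vehicle and 782, 809 and 848 with PDBAG1, a ratio of means of 1.38. The beta sum was 1034, 991 and 978 TPM with vehicle and 1093, 1181 and 1202 TPM with PDBAG1, a ratio of 1.16. The laminin sum was 364, 336 and 337 TPM with vehicle and 432, 452 and 457 TPM with PDBAG1, a ratio of 1.29. In each sum the groups did not overlap, and the smaller ratio of the beta chains followed ITGB1, which makes up most of that sum. The alpha sum was 0.588 ± 0.0122 times the beta sum with vehicle and 0.702 ± 0.0153 times with PDBAG1 (SD over 3 libraries each). The ratio of ITGB1 to the summed TPM of the 12 alpha chains that can pair with it was 1.53 ± 0.0338 with vehicle and 1.25 ± 0.0306 with PDBAG1 (SD over 3 libraries each), with no overlap. Sums, shares and ratios are given as descriptions. An exact permutation test of 3 libraries against 3 cannot give a two-sided p under 0.1.

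**Figure D2:**
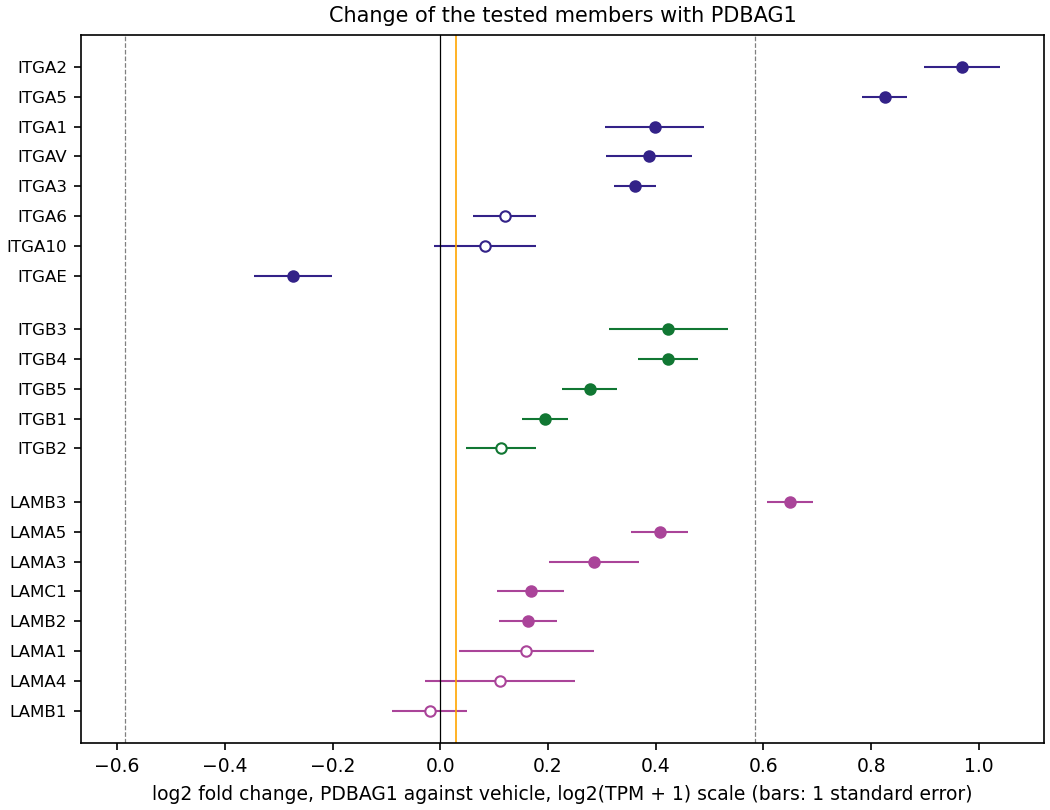
Log2 fold change of PDBAG1 against vehicle for 21 of the genes tested, on the log2(TPM + 1) scale, with bars of 1 standard error (n = 3 per group). Filled points passed a limma adjusted p of 0.05, dashed lines mark a 1.5-fold change and the orange line the median of all genes tested at 0.03. ITGA2, ITGA5 and LAMB3 lie beyond the upper dashed line and ITGAE is the only filled point below 0.

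ITGA2 and ITGA5 gave the largest rises in the family. ITGA2 encodes the alpha2 chain of the collagen receptor alpha2beta1 (chromosome 5, 52989340 to 53094779). It stood at 89.3, 76.3 and 74.5 TPM with vehicle and at 143, 159 and 170.4 TPM with PDBAG1. All treated libraries were far above all vehicle libraries, with a log2FC of 0.97 (standard error, SE, 0.07, limma adjusted p = 2.53e-07). ITGA5 encodes the alpha5 chain of the main fibronectin receptor (chromosome 12, 54395261 to 54419266). It stood at 66.9, 66.8 and 66.4 TPM with vehicle and at 118, 118 and 121 TPM with PDBAG1, a log2FC of 0.82 (SE 0.04, limma adjusted p = 6.53e-09). The replicates of ITGA5 differed little, so that the gap between the groups was many times their spread. Ranked by log2FC over all genes tested, ITGA2 was number 86 and ITGA5 number 137 of 12582.

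The other alpha chains moved less. ITGA3, the most abundant, stood at 269, 253 and 254 TPM with vehicle and 331.8, 327 and 339 TPM with PDBAG1 (log2FC 0.36, SE 0.04, limma adjusted p = 8.84e-06). ITGAV, the partner of several beta chains in receptors for vitronectin and latent TGF-beta, rose from 26.7 ± 2.95 to 35.1 ± 2.80 TPM (SD over 3 libraries each; log2FC 0.39). ITGA1, a second collagen-binding chain, rose from 8.24 ± 1.01 to 11.2 ± 0.775 TPM (SD over 3 libraries each; log2FC 0.40). The transcript of ITGA1 shares exon sequence with PELO on the same strand, which stood at 29.2 to 30.5 TPM with vehicle and 32.9 to 33.8 TPM with PDBAG1, so part of either value may be reads that could be assigned to both. ITGA10, a further collagen-binding chain, did not pass (log2FC 0.08, limma adjusted p = 0.525).

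ITGA6 did not pass and ITGAE fell. ITGA6, the second most abundant alpha chain in vehicle-treated cells, stood at 139.7, 129.5 and 124 TPM with vehicle and 132, 142 and 153 TPM with PDBAG1. The groups overlapped, and the log2FC of 0.12 (SE 0.06) did not pass, with a limma adjusted p = 0.127. It passed without vehicle replicate 1 (0.167, limma adjusted p = 0.0451) or without PDBAG1 replicate 1 (0.175, limma adjusted p = 0.0213), the libraries that tended to be the highest and the lowest of their groups. ITGAE, the alphaE chain of a receptor for E-cadherin, fell from 12.03, 12.14 and 11.45 TPM to 9.66, 9.94 and 9.34 TPM (log2FC -0.27, SE 0.07, limma adjusted p = 0.00897). It was the only member that fell. Its beta partner ITGB7 was at or below 0.240 TPM in every library and its ligand gene CDH1 at 0.430 to 0.840 TPM.

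The makeup of the alpha chains differed between the groups as follows. The share of ITGA2 in the alpha sum was 13.6% ± 0.667 with vehicle and 19.3% ± 0.924 with PDBAG1, and that of ITGA5 11.3% ± 0.524 and 14.6% ± 0.393 (SD over 3 libraries each). The share of ITGA6 was 22.2% ± 0.413 with vehicle and 17.5% ± 0.637 with PDBAG1, and that of ITGA3 43.9% ± 0.791 and 40.9% ± 1.34 (SD over 3 libraries each). In none of these 4 shares did the groups overlap. With vehicle ITGA6 lay above ITGA2 in every library, at an ITGA2 to ITGA6 ratio of 0.610 ± 0.0257, whereas with PDBAG1 that ratio was 1.105 ± 0.0147 (SD over 3 libraries each). The laminin-binding chains as a class took 58.4% ± 0.730 of the alpha sum with PDBAG1, the collagen-binding chains 21.3% ± 0.960 and the RGD-binding chains 19.0% ± 0.222 (SD over 3 libraries each).

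Of the 5 beta chains tested, 4 rose. ITGB1 stood at 906, 869.9 and 859 TPM with vehicle and 942, 1023 and 1054 TPM with PDBAG1, a log2FC of 0.19 (SE 0.04, limma adjusted p = 0.0027). The gap between the highest vehicle and the lowest treated library was small, and both were replicate 1. ITGB4, the hemidesmosome chain (chromosome 17, 75721328 to 75757818), stood at 47.6, 45.0 and 44.1 TPM with vehicle and 61.9, 64.8 and 57.7 TPM with PDBAG1 (log2FC 0.42, SE 0.06, limma adjusted p = 5.87e-05). Its partner ITGA6 did not pass, and the ITGA6 to ITGB4 ratio was 2.87 ± 0.0694 with vehicle and 2.33 ± 0.291 with PDBAG1 (SD over 3 libraries each). ITGB5 rose from 46.9 ± 2.12 to 57.0 ± 0.940 TPM (SD over 3 libraries each; log2FC 0.28). ITGB3 rose from the low level of 1.60 ± 0.197 to 2.48 ± 0.206 TPM (SD over 3 libraries each; log2FC 0.42, limma adjusted p = 0.00836), a change that the added pseudocount understates. ITGB2, the leukocyte chain, did not pass (28.3 ± 0.517 and 30.7 ± 2.52 TPM, SD, n = 3 each; log2FC 0.11). ITGB8, an alphaV partner below the level for testing, was at 0.340, 0.360 and 0.320 TPM with vehicle and 0.490, 0.580 and 0.580 TPM with PDBAG1.

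Among the laminin chains, LAMB3 rose most. LAMB3 stood at 86.5, 83.3 and 83.2 TPM with vehicle and 131, 135 and 132 TPM with PDBAG1 (log2FC 0.65, SE 0.04, limma adjusted p = 8.00e-08), so that every treated library was far above every vehicle library. LAMA3, the laminin alpha3 chain, stood at 15.3, 14.4 and 13.5 TPM with vehicle and 15.6, 19.1 and 18.8 TPM with PDBAG1. Its lowest treated library was just above its highest vehicle library, with a log2FC of 0.29 (SE 0.08, limma adjusted p = 0.0152). The call of LAMA3 was lost without vehicle replicate 3 (log2FC 0.24, limma adjusted p = 0.0734) or without PDBAG1 replicate 2 (0.24, limma adjusted p = 0.0803). It was also lost with length and GC trends removed (0.14, limma adjusted p = 0.0831).

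The chains of laminin-511 did not move as a set. LAMA5, the alpha5 laminin chain (chromosome 20, 62307955 to 62367312), rose from 57.7, 51.9 and 52.1 TPM to 70.2, 73.0 and 72.2 TPM (log2FC 0.41, SE 0.05, limma adjusted p = 4.94e-05). With length and GC trends removed, its log2FC was 0.11. LAMB1 stood at 35.7, 30.7 and 31.1 TPM with vehicle and 30.9, 30.8 and 34.3 TPM with PDBAG1, overlapping values with a log2FC of -0.02 (SE 0.07, limma adjusted p = 0.845). LAMC1, the gamma1 chain common to most laminins, stood at 58.3, 53.8 and 53.0 TPM with vehicle and 57.1, 61.7 and 67.2 TPM with PDBAG1, also overlapping, and just passed (log2FC 0.17, SE 0.06, limma adjusted p = 0.0475). LAMB2, which replaces LAMB1 in laminin-521, rose from 52.6 ± 2.99 to 59.0 ± 1.35 TPM (SD over 3 libraries each; log2FC 0.16, limma adjusted p = 0.0267). The calls of LAMC1 and LAMB2 were the least stable of the family: 7 and 6 of the 13 alternative settings lost them, and with length and GC trends removed the log2FC of LAMB2 was -0.01. LAMA1 (log2FC 0.16) and LAMA4 (0.11), both near 1 TPM, did not pass.

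The makeup of the laminin chains differed accordingly. LAMB3 was 49.7% ± 1.102 of the laminin beta sum with vehicle and 59.2% ± 0.697 with PDBAG1, and LAMB1 was 19.1% ± 0.813 and 14.3% ± 0.773 (SD over 3 libraries each). Of the alpha chains LAMA5 held 76.3% ± 0.305 with vehicle and 77.8% ± 1.56 with PDBAG1 (SD over 3 libraries each). LAMB3 was 2.60 ± 0.161 times LAMB1 with vehicle and 4.16 ± 0.269 times with PDBAG1 (SD over 3 libraries each). These ratios did not overlap between the groups.

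**Figure D3:**
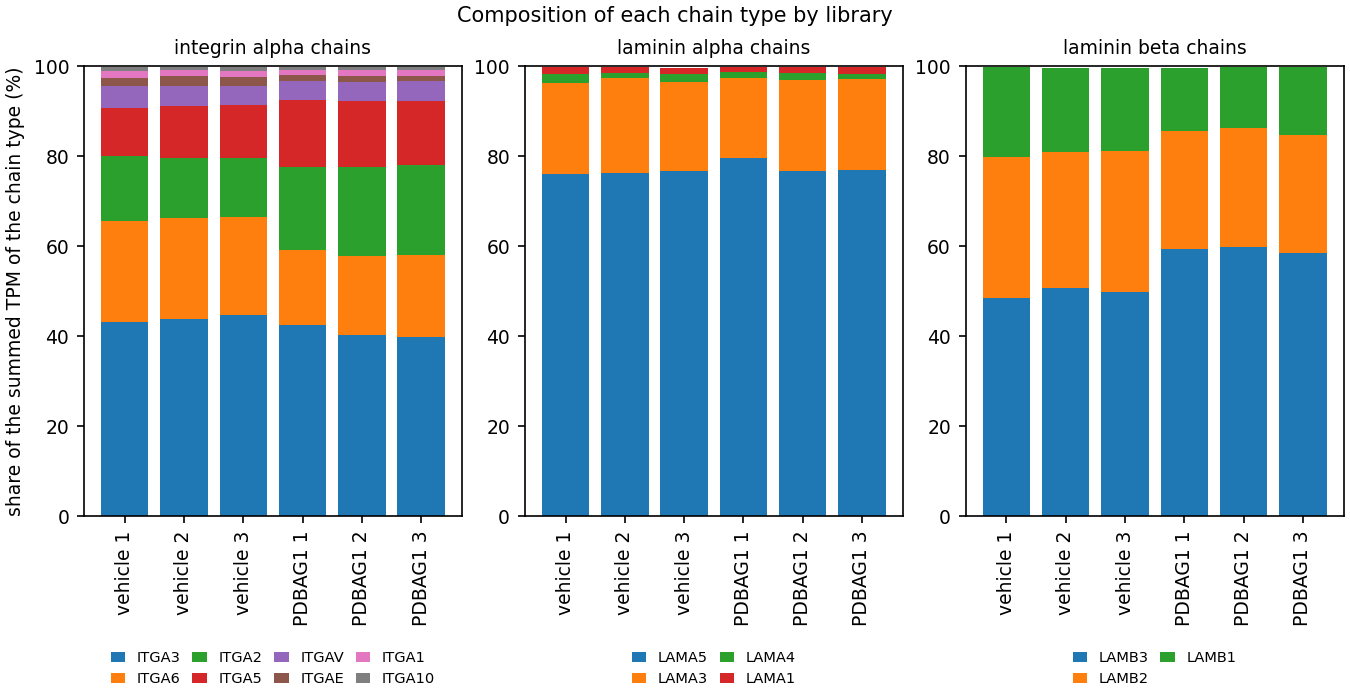
Stacked shares, in percent of the summed TPM, of the tested members within the integrin alpha chains and within the laminin alpha and beta chains, with 1 bar per library. In every PDBAG1 library ITGA2 and ITGA5 take more of the alpha chains and LAMB3 takes 58.4% to 59.7% of the beta chains. Members below the level for testing are not drawn, which is why some bars end just under 100.

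The promoters of the 3 genes that rose at least 1.5-fold are shown beside that of LAMB1, which did not pass. RefSeq promoter windows (GRCh38.p14) were matched by symbol for 16 of the 22 genes tested. The 250 bases before the most upstream start were searched on both strands for ACGTG and GCGTG (cores of the hypoxia response element), TGANTCA (AP-1), GGAATG (TEAD), GGGCGG (SP factors) and the NF-kB site. GGAATG can overlap the NF-kB site. Each sequence is printed 5′ to 3′ on the strand of its gene, up to the start of the gene in GENCODE. Capitals mark every match on either strand within the printed stretch. A further GGGCGG match of ITGA2, at -9 bases from the RefSeq start, lies past the printed stretch. The windows are chr5:52989102-52989339 (plus strand) for ITGA2, chr12:54419267-54419516 (minus strand) for ITGA5, chr1:209652426-209652675 (minus strand) for LAMB3 and chr7:108003214-108003411 (minus strand) for LAMB1.
ITGA2: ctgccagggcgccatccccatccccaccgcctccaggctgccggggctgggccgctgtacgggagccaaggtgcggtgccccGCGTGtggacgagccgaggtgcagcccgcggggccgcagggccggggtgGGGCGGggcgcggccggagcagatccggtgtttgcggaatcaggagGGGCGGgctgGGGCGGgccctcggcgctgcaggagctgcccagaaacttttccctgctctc
ITGA5: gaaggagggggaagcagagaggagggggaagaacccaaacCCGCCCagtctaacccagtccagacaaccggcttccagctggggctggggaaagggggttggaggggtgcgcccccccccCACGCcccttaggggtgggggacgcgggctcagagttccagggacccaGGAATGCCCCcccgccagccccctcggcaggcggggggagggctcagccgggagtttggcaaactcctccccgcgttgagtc
LAMB3: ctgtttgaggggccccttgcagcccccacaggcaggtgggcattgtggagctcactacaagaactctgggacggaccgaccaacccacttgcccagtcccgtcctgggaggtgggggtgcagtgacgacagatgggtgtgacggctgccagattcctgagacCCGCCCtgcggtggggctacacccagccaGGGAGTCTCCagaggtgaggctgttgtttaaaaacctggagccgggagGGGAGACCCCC
LAMB1: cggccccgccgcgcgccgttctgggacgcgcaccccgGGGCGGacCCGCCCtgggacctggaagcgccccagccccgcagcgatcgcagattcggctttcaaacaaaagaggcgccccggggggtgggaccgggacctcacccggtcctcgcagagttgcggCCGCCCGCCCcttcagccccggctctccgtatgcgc

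GCGTG was found in the windows of ITGA2, ITGA5 and ITGA6, and ACGTG in that of ITGA6, a gene that did not pass. Over all 35116 RefSeq windows cut to the same length, GCGTG was in 32.2% and ACGTG in 18.5%. The NF-kB site was in the windows of LAMB3, ITGA5, ITGA1 and ITGA10 (5.21% of all windows), GGAATG in those of ITGA5, ITGB1 and ITGA10 (11.9%), and TGANTCA in that of LAMA3 alone (6.57%). GGGCGG was in 10 of the 16, those of all 4 genes printed here included (42.6% of all windows). No motif was held by all 3 of the genes that rose 1.5-fold and absent from the window of LAMB1. A match of letters is a description of the window and says nothing of binding.

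On the cytoplasmic side of the integrins, a list of 34 adhesion plaque genes was compared in the same fit. These proteins tie integrin tails to actin or signal from them. Of 33 tested, 22 rose and none fell at a limma adjusted p under 0.05, beside 21.7% and 15.9% of all genes tested, with a median log2FC of 0.25. None rose 1.5-fold on the log2(TPM + 1) scale, which understates the change of genes at low levels. TLN1, which encodes talin and switches integrins on, rose from 86.8 ± 4.69 to 108 ± 1.68 TPM (SD over 3 libraries each; log2FC 0.31), and FERMT2, which encodes kindlin-2, from 119 ± 5.67 to 145 ± 4.67 TPM (SD over 3 libraries each; log2FC 0.28). The largest log2FC values were 0.53 for PTK2B and 0.52 for FERMT3, both at low levels, followed by 0.47 for KANK2, which links talin to microtubule capture, and 0.34 for TNS1. PTK2B stood at 1.26, 0.79 and 1.06 TPM with vehicle and 1.87, 1.75 and 2.21 TPM with PDBAG1. It reached the level for testing only through the group in which it was high. PTK2, which encodes focal adhesion kinase and was named after its value was seen, did not pass (log2FC 0.07, limma adjusted p = 0.308).

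Of 14 ligands of integrins other than laminins tested, 10 rose and 3 fell, beside 21.7% and 15.9% of all genes tested. At least 1.5-fold, 4 rose and 2 fell, beside 2.86% and 0.477% of all genes tested. The 10 include TNXB, which was below 1 TPM in every vehicle library and at 1.08 to 1.16 TPM with PDBAG1, so that it was tested only through the group in which it was high. FN1, which encodes fibronectin, the ligand of alpha5beta1, stood at 55.5, 53.0 and 49.4 TPM with vehicle and 86.7, 95.6 and 97.5 TPM with PDBAG1 (log2FC 0.81, SE 0.06, limma adjusted p = 1.89e-07). Its rise and that of the receptor chain ITGA5 were of similar size on this scale. LTBP1, which holds latent TGF-beta in the matrix, rose by 0.99 on the log2 scale. The 3 that fell were THBS1 (log2FC -1.24), CCN2 (-0.98) and CCN1 (-0.53), matricellular proteins that bind alphaV and other integrins. Such ligands did not fall as a kind, as CCN3 (log2FC 0.57) and TNC (0.54) were among those that rose. CCN2 stood at 132, 133 and 134 TPM with vehicle and 66.56, 66.76 and 66.85 TPM with PDBAG1. CCN1, CCN3 and TNC were named after their values were seen.

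Of 12 partners of laminins in the basement membrane tested, 4 rose and 2 fell, beside 21.7% and 15.9% of all genes tested, with a median log2FC of 0.08 beside 0.03. These shares are near those of all genes, and the values that follow are of single genes. COL7A1, the collagen of the anchoring fibrils of skin, stood at 14.31, 11.70 and 11.96 TPM with vehicle and 23.25, 24.11 and 24.55 TPM with PDBAG1 (log2FC 0.88, limma adjusted p = 1.60e-06). COL17A1 (log2FC 0.38), PXDN (0.33) and AGRN (0.29) also rose. The 2 that fell were NTN4 (log2FC -0.26) and TINAGL1 (-0.24), which were named after their values were seen. The basement membrane collagen genes COL4A1 and COL4A2 had log2FC values of 0.10 and 0.11 and did not pass. Both were named after their values were seen.

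Of the laminin receptors other than integrins and the hemidesmosome proteins, 5 of 14 tested rose and 3 fell, beside 21.7% and 15.9% of all genes tested, so the counts are not read as a result about the list. Of the 5, COL17A1 was also counted among the basement membrane partners above, and CD151 is counted again among the membrane partners of integrins below. SDC4, which encodes syndecan-4, a co-receptor in fibronectin adhesion, rose most, from 214 ± 2.02 to 352 ± 4.46 TPM (SD over 3 libraries each; log2FC 0.72, limma adjusted p = 4.97e-09). PLEC, the plectin that links beta4 to keratin filaments, rose by 0.34 and SDC3 by 0.28 on the log2 scale. The genes that fell were SDC1 (log2FC -0.23), SDC2 (-0.19) and RPSA (-0.12), which also encodes a ribosomal protein. These were named after their values were seen. DAG1, the gene of the laminin receptor dystroglycan, did not pass (log2FC 0.11).

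**Figure D4:**
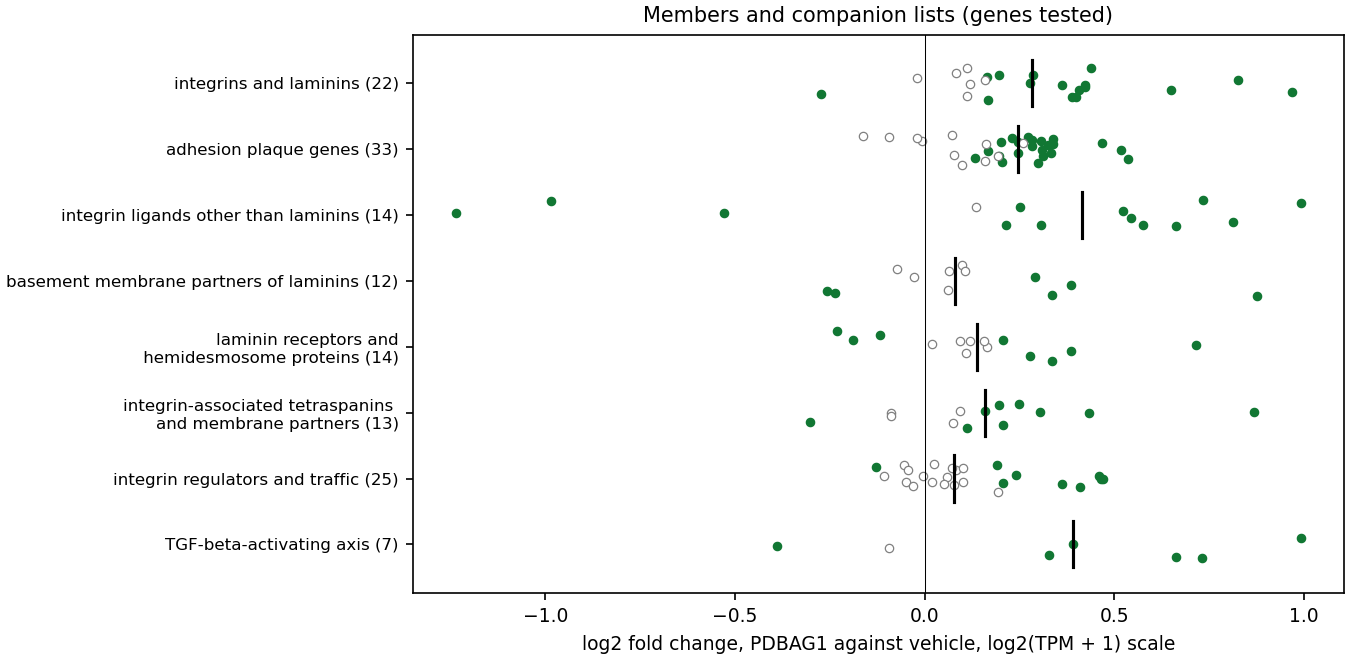
Log2 fold change of PDBAG1 against vehicle for the genes tested, 1 point per gene, in the integrin and laminin family and in the companion lists, on the log2(TPM + 1) scale with the number tested in brackets. Filled points passed a limma adjusted p of 0.05 and black lines mark medians. The family (0.28) and the adhesion plaque genes (0.25) lie mostly right of 0, and the ligands spread from -1.24 to 0.99.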

How the data were processed

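mRNA of 6 libraries, 3 per group by the labels, was sequenced by the authors on a BGISEQ-500. The submitters' processing notes name HISAT2 2.0.4, Bowtie2 2.2.5, RSEM 1.2.12 and GRCh38.p12. The deposited values are TPM per gene, rounded to 2 decimals, which hold no read counts, so depth and counting error are unknown. The methods name FPKM, but each library sums to 999998 to 1000000.

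The members and all gene lists were chosen with earlier results of these data known. Genes with at least 1 TPM in 3 libraries (12582) were fitted as log2(TPM + 1) with limma 3.58.1 (R 4.3.3, eBayes with trend), and p values were adjusted by Benjamini-Hochberg over all genes tested, with thresholds of 0.05 and 1.5-fold. The fold change understates that of low genes. The test was checked on simulated data. All members could be named, and of each companion list up to 4 called genes with the largest change and partners of members. Positions came from GENCODE 44. Whether reads were assigned by strand is not given in the sources used here, so genes that overlap others are uncertain. Alternatives were other filters, a pseudocount of 0.1, a replicate block, leaving out each library, median-of-ratios and quantile scaling, and removal of length and GC trends. The values of 1 tested laminin gene are not reported here, though it is counted.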

Additional observations from a re-analysis of the deposited data

How the results depend on the processing

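Over the 22 genes tested, 260 of 284 gene and setting combinations kept direction and side of the threshold, and 15 genes did so under every setting. The number of members that rose was 15, and 12 to 16 when 1 library was left out (12 without vehicle replicate 3 or PDBAG1 replicate 2, 16 without replicate 1 of either group). With length and GC trends removed it was 12. The companion genes that rose then numbered 46 in place of 58, and those that fell 18 in place of 11. Over all genes tested that setting moved rises from 2736 to 2436 and falls from 2000 to 3104. Direction turned for ITGA10, LAMB1 and LAMA4, which had not passed, and for LAMB2, which had (log2 fold change 0.16). ITGA10 was -0.0393 with quantile normalization and -0.0214 with length and GC trends removed (log2 fold change), LAMB2 was -0.0078 with those trends removed, and LAMB1 ranged from -0.0687 to 0.0483 and LAMA4 from -0.0021 to 0.22 when 1 library was left out. The cause was not tested. Depth is unknown, so nothing can be said of counting error, least of all near 1 TPM.

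Whether equal replicate numbers mark paired libraries is not given in the sources used here. The correlations of same-numbered deviations were -0.207, 0.0118 and -0.0785, which cannot decide this with 3 libraries per group. With the replicate number as a block, 13 members rose, 1 fell and 3 rose at least 1.5-fold, and LAMB2 (adjusted p = 0.0667) and LAMC1 (adjusted p = 0.0811) were no longer called by limma. Among the 114 companion genes tested, 55 rose and 9 fell with the block. Over all 12582 genes tested, 2313 rose and 1638 fell with it, 363 and 64 of them at least 1.5-fold.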

Other observations

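Membrane partners of integrins were compared as a further list. Of 13 tested, 8 rose and 1 fell at a limma adjusted p under 0.05, beside 21.7% and 15.9% of all genes tested, with a median log2 fold change of 0.16. PLAUR, the urokinase receptor, rose from a mean of 159 to 289.9 TPM (log2 fold change 0.87), the tetraspanin CD82 from 96.2 to 130.2 TPM (0.43) and the tetraspanin CD9 from 467 to 577 TPM (0.30). CAV1, which encodes caveolin-1, fell from 575 to 467 TPM (log2 fold change -0.30). Of 25 regulators of integrin activity and traffic tested, 8 rose and 1 fell, beside 21.7% and 15.9% of all genes tested, with a median of 0.08 beside 0.03, and the counts are not read as a result about the list. Those that changed most were APBB1IP (log2 fold change 0.47), which brings talin to integrins, NUMB (0.46), an endocytic adaptor, NRP2 (0.46) and DAB2 (0.41).

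Of 7 genes tested around latent TGF-beta, which alphaV integrins can activate, 5 rose and 1 fell, beside 21.7% and 15.9% of all genes tested. Of the 5, TGFB1 and LTBP1 were also counted among the integrin ligands above. TGFB1 rose from a mean of 68.1 to 108 TPM (log2 fold change 0.66), LTBP3 from 6.45 to 11.4 TPM (0.73) and NRROS from 7.01 to 9.50 TPM (0.39). TGFB2 fell from 34.3 to 26.0 TPM (log2 fold change -0.39, limma adjusted p = 0.000677), and was named after its value was seen.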
